A study of Mus musculus with 18 samples.

Results

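Mouse embryonic fibroblasts (MEFs) given the hematopoietic transcription factors *Fli1*, *Gata2* and *Lmo2* (FGL) were compared with untreated MEFs (uFIB), both after 21 days of culture. The comparison addresses what these factors changed in fibroblasts when *Tal1*, which the labels call Scl, was left out of the combination. It used 2 of the 18 RNA-seq samples of the series, 1 library on each side. Expression was given as FPKM, the fragments assigned to a gene per kilobase of transcript, scaled to the fragments mapped in the library. Genes were kept where the higher of the 2 libraries reached at least 10 FPKM, which held for 6389 of 20495 gene entries. Among genes next to this limit, *Znhit6* (10.01 FPKM in the higher library) and *Ap3m2* (10.02) were just inside, and *Paqr4* (9.996) and *Ngly1* (9.991) were just outside. Changes below are FGL minus uFIB on the log2(FPKM + 1) scale, where 1 stands for 2-fold, and a gene was called higher or lower at a change of at least 1 in size.

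The MEFs were prepared at embryonic day 14.5 from mice of strain 129. The study describes reprogramming experiments with wild-type (n = 5) and iTal1-2A-GFP (n = 2) MEFs, numbers that do not refer to the libraries used here. In iTal1-2A-GFP cells rtTA and TRE-TAL1 cassettes express TAL1 under doxycycline. Which cells gave a given library is not stated in the labels. Per the methods of the study, cells negative for CD45, CD41, CD31 and CD117 were sorted from low-passage MEFs, transduced with lentiviral vectors for the factors and moved to hematopoietic medium. The labels do not say whether uFIB was handled with the same vectors and medium. The same table held MEFs given *Tal1* and *Lmo2* (SL) or all 4 factors (SFGL), and each of the 4 conditions had 1 library at day 12 and 1 at day 21. With 1 library on a side no difference could be tested, no replicate spread is known and no p-values are given. The labels do not say whether whole cultures or selected cells were sequenced. Fewer cells of a type and less RNA per cell cannot be told apart in such libraries.

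In blood progenitors, LMO2 is an adaptor protein that binds no DNA itself. It joins TAL1 and its E-protein partners to GATA factors and recruits LDB1. FLI1 is a factor of the ETS family that occupies many of the same enhancers, and GATA2 is needed for blood stem and progenitor cells. Fibroblasts are connective tissue cells that secrete collagens and other matrix proteins, and they can take on a contractile state marked by smooth muscle actin.

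The libraries did not follow their labels in every respect. *Fli1*, a factor of the FGL mix, stood at 3.35 FPKM in FGL and 3.02 FPKM in uFIB at day 21, so the library labelled FGL did not show this factor above untreated cells, and FGL stands below for the libraries so labelled. At day 12 the library labelled FGL held 7.04 FPKM of *Tal1*, a factor not in the mix, against 0.0414 FPKM in uFIB. That day 12 library also held genes of blood cells. A set of 339 genes, the 4 factor genes among them, was at least 8-fold higher in both SL and SFGL than in uFIB at day 12. Over this set the median level in FGL was 11.1% of the level in SL, with quartiles of 8.97% and 15.0%. At day 21 the 338 of these genes above 0 in SL stood at a median of 0.670% of SL in FGL and 1.79% in uFIB. The Y-linked gene *Eif2s3y* was at 30.8 to 40.8 FPKM in the 4 libraries of day 12 and at no more than 0.0244 FPKM in the 4 of day 21, and *Kdm5d*, *Uty* and *Ddx3y* divided the libraries in the same way. A difference between the days cannot be told apart from a difference between the cells that were cultured. The table holds no counts, and the depth of the libraries is not known from it.

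The FGL library of day 21 held the markers of fibroblasts at high levels, and the defining markers of blood and endothelium were near or under 1 FPKM in both libraries. *Col1a1*, a chain of type I collagen, was at 1542 FPKM in FGL and 1609 in uFIB, and *Col3a1*, of type III collagen, at 2059 and 2045. *Vim*, the intermediate filament vimentin, was at 1201 and 1323 FPKM, and *Pdgfra*, a receptor of fibroblasts, at 53.8 and 47.7. The changes of these 4 genes lay between -0.14 and 0.17. *Ptprc*, which encodes CD45, was listed at 0 in FGL and was at 0.0997 FPKM in uFIB. *Itga2b*, which encodes CD41, was at 0.805 and 1.003 FPKM and *Kit* at 0.2996 and 0.423. The endothelial genes *Pecam1* (0.122 and 0.0627 FPKM), *Cdh5* (0.344 and 0.303), *Kdr* (0.159 and 0.102) and *Tek* (0.773 and 0.797) were all under 1 FPKM in both libraries.

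Few genes differed between FGL and uFIB at day 21. Of the kept genes 26 were higher in FGL (0.407%) and 13 were lower (0.203%), and 96.9% of them, 6193 genes, were within 1.5-fold. The median change over the kept genes was 0.03, with an SD over genes of 0.29. When both libraries were scaled to the same upper quartile, the median moved by -0.11 and the split was 18 higher and 15 lower. Of the genes called before, 18 of the 26 higher and all 13 lower ones were still called. The higher genes that dropped out were *Ankrd1*, *Hoxb9*, *Hoxc4*, *Myl9*, *Srsf1*, *Dio3*, *Hat1* and *Prss35*. The 2 untreated libraries of day 21 and day 12, which received no factor, differed by more: 106 of 6512 genes were higher at day 21 (1.63%) and 90 lower (1.38%). The number of genes past the limit in FGL at day 21 was thus below the number that separated untreated cells of the 2 days.

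**Figure D1:**
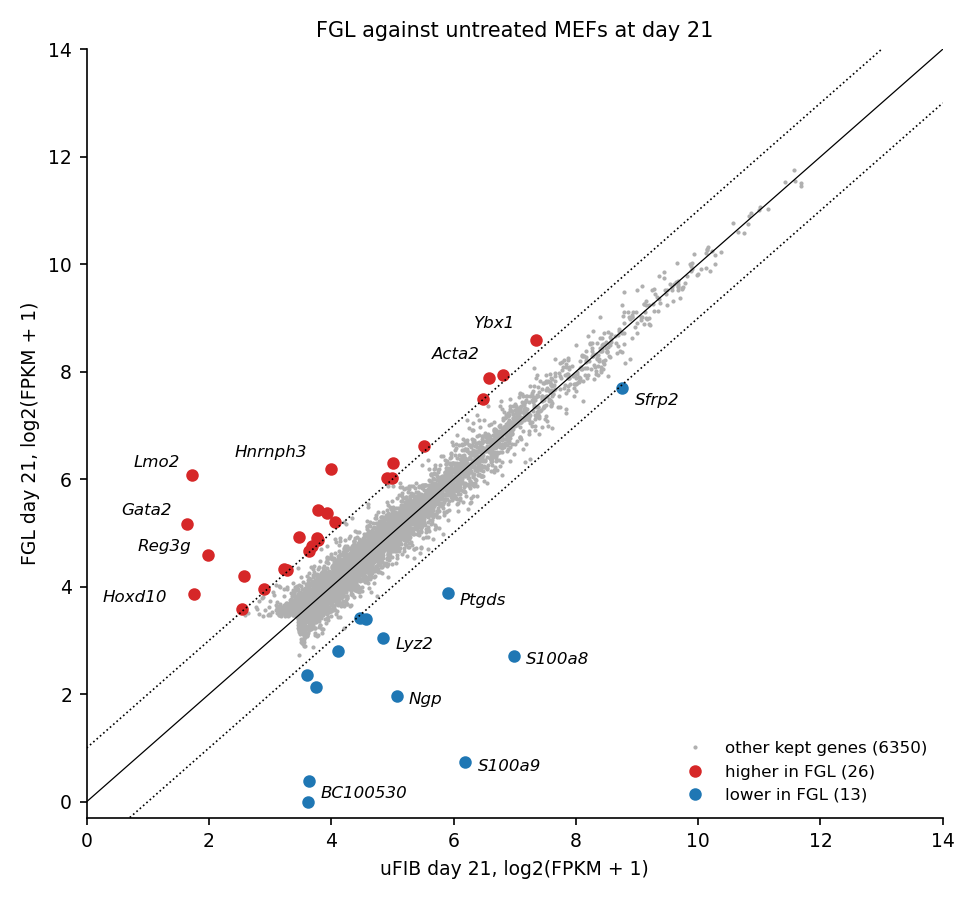
Level of each of the 6389 kept genes in uFIB (x axis) and FGL (y axis) at day 21, both as log2(FPKM + 1). The solid line marks equal levels and the dotted lines the 2-fold limits. The 26 genes higher in FGL are led by *Lmo2* and *Gata2*, and the lowest of the 13 lower genes are *S100a9*, *S100a8* and other genes of neutrophils.

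*Lmo2* and *Gata2*, both in the mix, had the 2 largest increases among the kept genes. *Lmo2* was at 66.5 FPKM in FGL against 2.28 in uFIB at day 21, a change of 4.36, and at 36.2 against 0.499 FPKM at day 12. *Gata2* was at 35.1 against 2.13 FPKM at day 21, a change of 3.53, and at 21.9 against 1.80 at day 12. Both were further up where *Tal1* was given: at day 21 *Lmo2* was at 150.5 FPKM in SL and 128 in SFGL, and *Gata2*, which is not part of the SL mix, was at 62.6 FPKM in SL and 132 in SFGL. *Fli1* differed by 0.12 at day 21 and by 1.07 at day 12, where it was at 8.29 FPKM in FGL and 3.43 in uFIB. In SL, whose mix lacks *Fli1*, it was at 34.4 FPKM at day 21, and in SFGL it was at 27.8. *Tal1* was at 0.0705 FPKM in FGL and 0.415 in uFIB at day 21, against 347 FPKM in SL and 119 in SFGL. The table holds 1 value per gene and library, and transcripts of the vectors and of the genes themselves cannot be told apart in it.

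**Figure D2:**
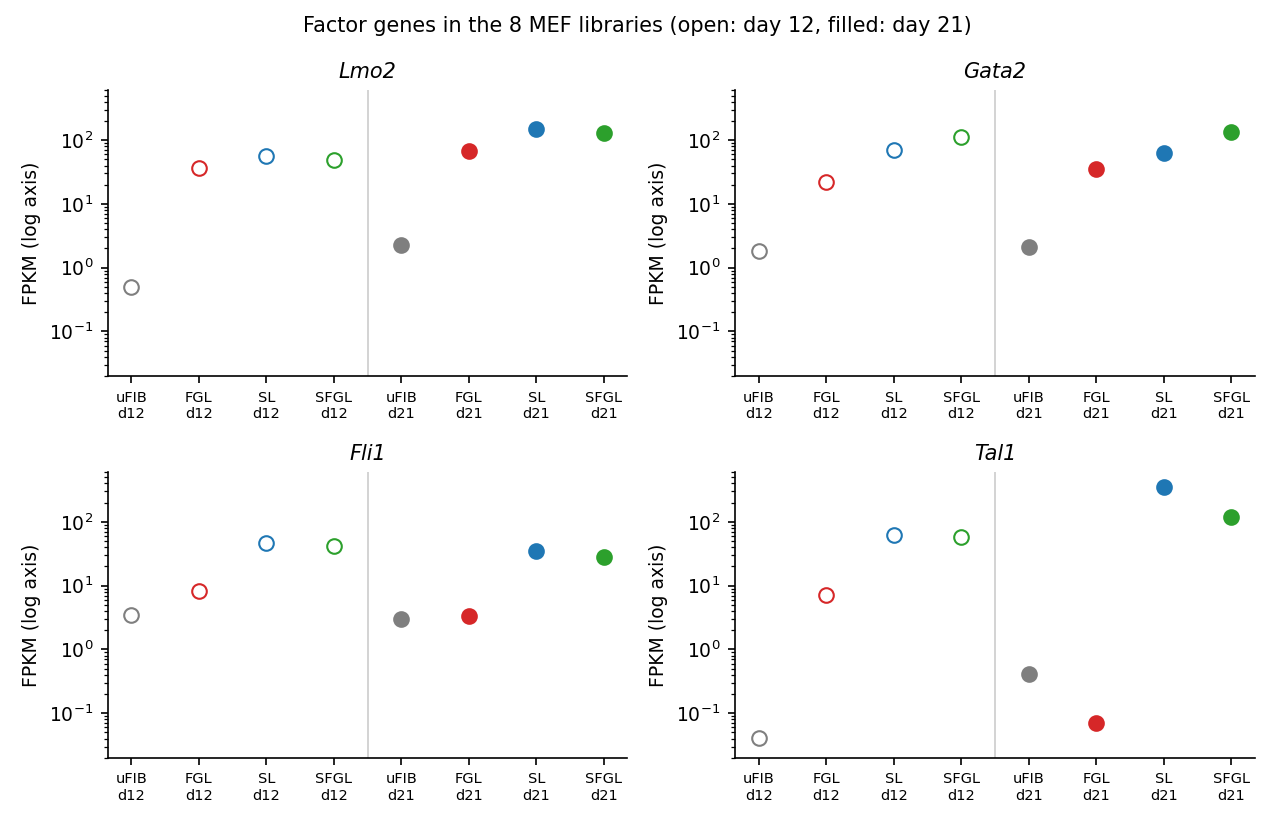
FPKM of the 4 factor genes (log axis) in each of the 8 MEF libraries, 1 point per library, with day 12 open and day 21 filled. In FGL at day 21 *Lmo2* (66.5) and *Gata2* (35.1) are far above uFIB, while *Fli1* (3.35) lies at the level of uFIB (3.02) and *Tal1* (0.0705) below it (0.415).

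Transcripts of most listed partners of the TAL1 complex were found in both libraries at levels above 10 FPKM. *Ldb1*, which encodes the partner that LMO2 recruits, was at 57.1 FPKM in FGL and 50.5 in uFIB. *Lmo4*, a paralog of *Lmo2*, was at 102 and 92.9. The list has 7 genes without the factors of the mix, 6 of them were kept and none was called, with a median change of 0.16. Among 6 GATA genes *Gata2* was the only 1 kept, and *Gata6* stood at 8.05 FPKM in FGL and 7.98 in uFIB. Of 15 ETS factors 7 were kept and none was called, with a median of 0.09. *Gata1*, which is turned on in erythroid and megakaryocyte cells and is named here after its values were seen, was listed at 0 in FGL and was at 29.9 FPKM in SL and 49.5 in SFGL at day 21.

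Beyond the factors of the mix, no gene in a list of transcription factors of blood cells was called at day 21. Of the 18 measured, 14 were under 1 FPKM in FGL. The highest were *Cebpa*, also a factor of fat cells, at 67.0 FPKM in FGL and 78.8 in uFIB, and *Runx1*, a master factor of blood development, at 24.8 and 24.5. *Runx1* was therefore already present in untreated MEFs, and SL and SFGL held 31.0 and 37.4 FPKM. Of 23 endothelial genes 17 were under 1 FPKM in FGL, and the summed level of the list was 54.0 FPKM in FGL and 52.3 in uFIB. All 13 erythroid genes in the table and 16 of 17 pan-leukocyte genes were also under 1 FPKM in FGL. In uFIB more of the pan-leukocyte genes were above 1 FPKM, among them *Itgb2* (2.70), *Cd52* (2.33) and *Lcp1* (1.38). The pan-leukocyte list summed to 61.0 FPKM in FGL and 65.5 in uFIB.

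Genes of hematopoietic progenitors were read from the differentiation stages of the series, from the authors' pooled values. The 119 genes with at least 10 FPKM in hematopoietic progenitors and at least 4-fold above embryonic stem cells, mesoderm and hemangioblasts included 118 in the MEF table, of which 33 were kept. Of these 3 were higher in FGL, beside 0.407% of all kept genes, and none lower, with a median change of 0.07 beside 0.03 over all kept genes. Those 3 were *Acta2*, which encodes smooth muscle actin, *Ankrd1* and *Ctla2a*, whose values are given below. Over the same 33 genes the median was 0.57 in SL and 0.75 in SFGL, both measured against the same uFIB library. Of the 118 genes 63 were under 1 FPKM in FGL, 53 in uFIB and 5 in SL.

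Of the 26 higher genes 9 encode proteins that bind or process RNA, not counting *Lars2*, a tRNA synthetase given below. This group was put together after the values were seen, and the share of such genes among all kept genes was not counted. *Hnrnph3*, a heterogeneous nuclear ribonucleoprotein (hnRNP) that takes part in splicing, was at 72.0 FPKM in FGL and 14.9 in uFIB at day 21, a change of 2.20. It was at 18.7 and 18.2 FPKM at day 12. Its close relative *Hnrnph1* was at 235 and 94.3 FPKM, a change of 1.31, and *Hnrnpd*, which binds AU-rich messages, at 29.0 and 12.6, a change of 1.14. Each of the 3 was higher in FGL of day 21 than in either untreated library or in FGL of day 12.

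*Ybx1*, a cold shock protein that binds messenger RNA, was at 383 FPKM in FGL and 162 in uFIB at day 21, a change of 1.24. *Ppih*, a cyclophilin of the U4/U6 snRNP, was at 29.2 and 10.1 FPKM, a change of 1.44. *Snrpc*, a subunit of the U1 snRNP, was at 97.6 and 44.8 FPKM, a change of 1.11. *Rbmx*, an RNA-binding protein encoded on the X chromosome, was at 35.7 and 15.7 FPKM, a change of 1.13, and *Lsm12* at 63.9 and 28.9, a change of 1.12. *Srsf1*, an SR protein of the spliceosome that is named here after its values were seen, was at 63.9 and 30.8 FPKM, a change of 1.03. Together with the 3 hnRNPs these make 9 of the 26 higher genes.

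None of these 9 genes differed in this way at day 12. Their changes on that day lay between -0.13 for *Lsm12* and *Snrpc* and 0.21 for *Hnrnpd*. They were also higher in SL and SFGL than in uFIB at day 21, with the same uFIB library in each comparison. *Hnrnph3* was at 53.7 FPKM in SL and 34.2 in SFGL, and at 15.1 and 20.8 FPKM in these mixes at day 12. *Ybx1* was at 409.6 FPKM in SL and 397 in SFGL at day 21. For *Hnrnph3*, *Hnrnph1*, *Snrpc*, *Rbmx* and *Lsm12* the FGL library of day 21 was the highest of the 8.

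**Figure D3:**
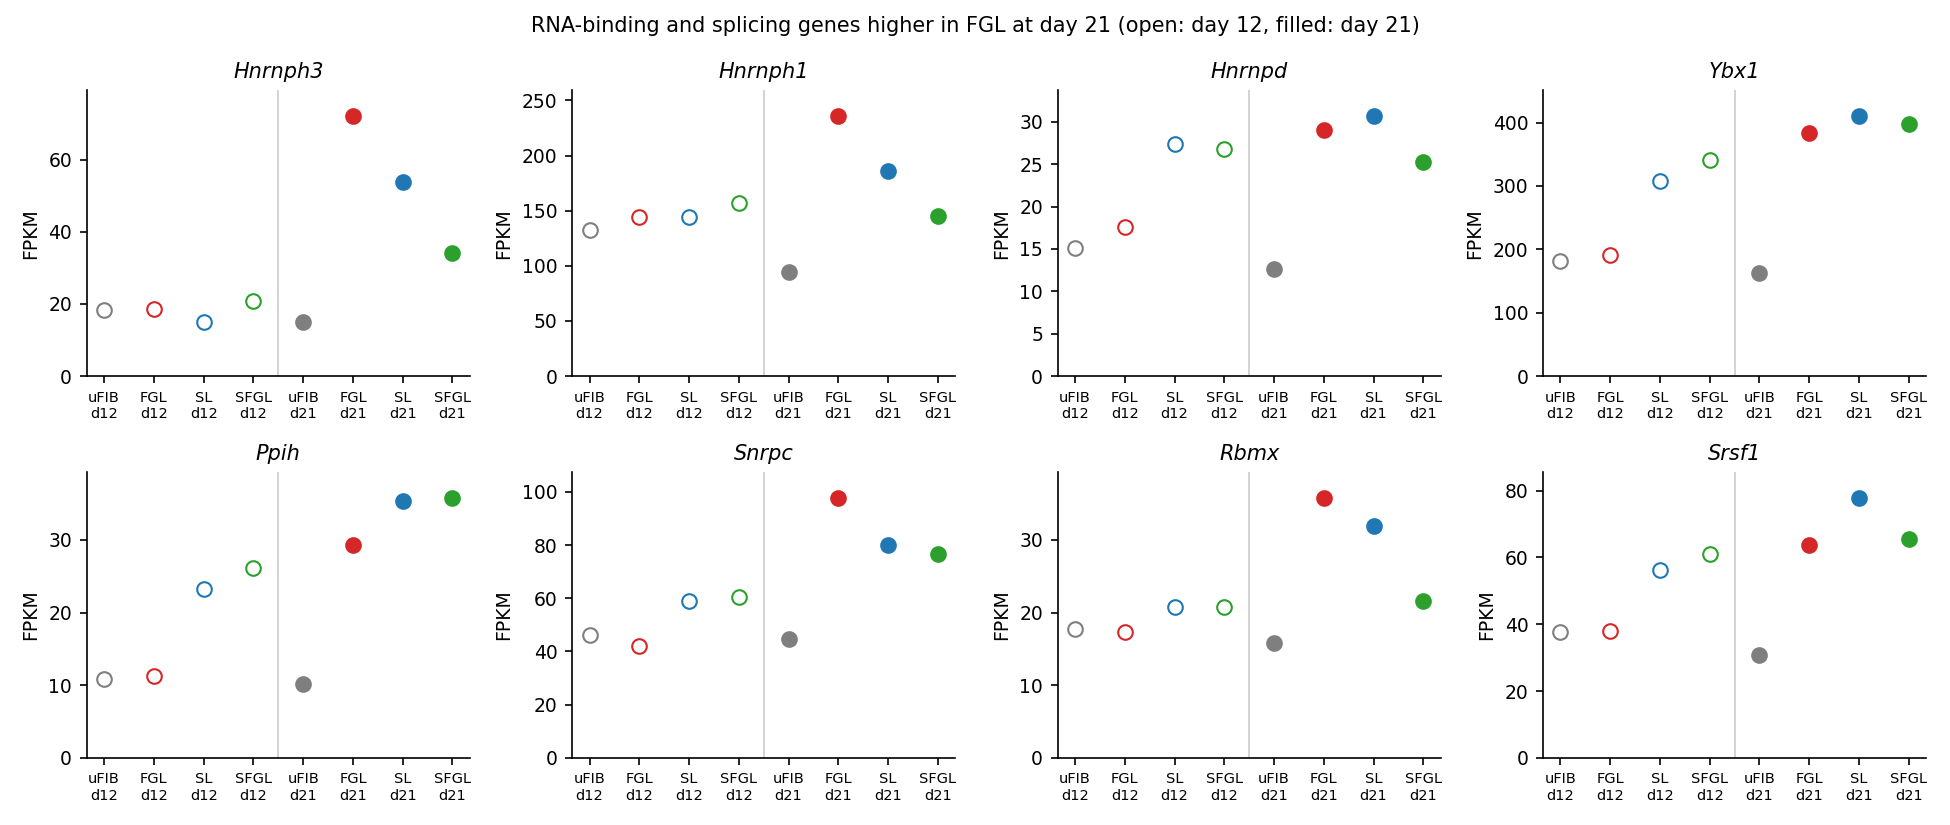
FPKM of 8 RNA-binding and splicing genes (linear axes from 0) in the 8 MEF libraries, 1 point per library, with day 12 open and day 21 filled. At day 21 FGL, SL and SFGL all lie above uFIB for each gene, and at day 12 FGL lies next to uFIB.

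The families of these genes were gathered by their symbols after the values were seen, so their counts are a description only. All 18 hnRNP genes in the table were kept, 17 were above uFIB and 3 were called higher, beside 0.407% of all kept genes. Their median change was 0.40 at day 21 and 0.04 at day 12. In the untreated cells their median moved by -0.23 from day 12 to day 21. The most expressed, *Hnrnpk*, was at 306 FPKM in FGL and 234 in uFIB, and *Hnrnpa0* was the 1 below uFIB, at 58.0 and 62.0. Of 10 kept SR genes 1 was called, with a median of 0.30, and of 21 kept Sm and LSm genes 2 were called, with a median of 0.13. The 8 subunits of SF3 had a median of 0.16 with none called, and 22 kept RBM genes a median of 0.19 with 1 called. At day 12 the medians of these 4 families lay between -0.12 and 0.02.

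Of the *Hox* genes, which set position along the body axis, 4 were among the 26 higher genes. *Hoxd10* was at 13.6 FPKM in FGL and 2.37 in uFIB, a change of 2.12, *Hoxa5* at 19.2 and 8.31 (1.12), *Hoxc4* at 11.0 and 4.83 (1.04) and *Hoxb9* at 24.4 and 11.4 (1.04). They lie in all 4 *Hox* clusters. At day 12 *Hoxd10* was at 1.96 FPKM in FGL and 2.06 in uFIB, and the changes of the other 3 were between -0.11 and 0.02. *Hoxb9* at day 21 stood at 24.4 FPKM in FGL, close to the 24.3 and 26.0 FPKM of FGL and uFIB at day 12, and it was uFIB of day 21 that was lower. All 12 kept *Hox* genes were above uFIB at day 21, with a median change of 0.47, beside -0.01 at day 12. The 4 called of these 12 stand beside 0.407% of all kept genes called higher. Without the 10 FPKM limit, of 28 *Hox* genes with at least 1 FPKM in either library 25 were above and 3 below uFIB at day 21, and 11 were above it at day 12. *Hoxc6*, the most expressed, was at 43.4 and 33.1 FPKM. In SL and SFGL the kept *Hox* genes had medians of -0.43 and -0.96 against the same uFIB library, while *Hoxd10* was at 13.6 FPKM in SL and 6.81 in SFGL.

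Of 15 smooth muscle and contractile genes 10 were kept, and 3 of them were called higher in FGL at day 21, beside 0.407% of all kept genes. *Acta2*, smooth muscle actin, was at 244 FPKM in FGL and 111 in uFIB, a change of 1.13, *Myl9*, a regulatory light chain of myosin, at 179 and 88.3 (1.01), and *Tpm2*, a tropomyosin, at 77.7 and 31.3 (1.29). The changes of all 10 kept members were above 0, with a median of 0.73, which became 0.40 with the mean of both untreated libraries as reference. The most expressed member, *Tpm1*, was at 429 and 309 FPKM. At day 12 the median was 0.18, with *Acta2* at 351 FPKM in FGL and 258 in uFIB. The untreated cells of day 21 held less of the 3 called genes than those of day 12, where uFIB had 125 FPKM of *Myl9* and 63.0 of *Tpm2*. In FGL at day 21 *Acta2* was below uFIB of day 12, while *Myl9* and *Tpm2* were above it. Over the 10 kept members the median in untreated cells moved by -0.58 from day 12 to day 21, although *Actg2* rose from 4.33 to 7.92 FPKM. In SL and SFGL the median was -0.12 and -0.45. None of the 14 skeletal and cardiac muscle genes reached 10 FPKM in either library.

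Of 11 genes of the Hippo pathway 10 were kept and 1 was called higher, beside 0.407% of all kept genes. *Ankrd1*, a target of YAP1 and TEAD factors, was at 18.8 FPKM in FGL and 8.64 in uFIB, a change of 1.04. *Cyr61* and *Ctgf*, further targets that also stand in the contractile list, were at 213 and 158 FPKM and at 164 and 107. The changes of all 10 kept members were above 0, with a median of 0.28 at day 21 and 0.12 at day 12. The median of day 21 became 0.07 with the mean of both untreated libraries as reference. *Ankrd1* was at 66.6 FPKM in SL and 78.1 in SFGL at day 21.

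The remaining 7 higher genes have unlike roles. *Reg3g*, a secreted C-type lectin, was at 23.0 FPKM in FGL and 2.96 in uFIB, a change of 2.60, and at 31.9 and 11.0 FPKM at day 12. It was at 0.317 FPKM in SL and 0.373 in SFGL at day 21. *Lars2*, the mitochondrial leucyl-tRNA synthetase, was at 42.2 and 12.8 FPKM (1.65), *Ndufa4l2*, a mitochondrial protein induced by low oxygen, at 17.3 and 4.94 (1.62), and *Hat1*, a histone acetyltransferase, at 26.1 and 11.9 (1.08). *Ctla2a*, an inhibitor of cathepsin L, was at 40.7 and 14.2 FPKM (1.45), but uFIB of day 12 held 68.8. *Lars2* was likewise at 39.5 FPKM in uFIB of day 12. *Dio3*, a deiodinase that inactivates thyroid hormone, was at 28.1 and 12.8 FPKM (1.08), and *Prss35*, a serine protease named here after its values were seen, at 14.6 and 6.47 (1.06). *Dio3* and *Prss35* were lower in SL (6.06 and 0.892 FPKM) and SFGL (5.13 and 0.911) than in uFIB. Reads of *Ctla2a* may be shared with *Ctla2b*, a near copy, so that its value is uncertain.

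Genes of neutrophils made up the strongest decreases. *S100a9* and *S100a8*, the paired calcium-binding proteins of neutrophil cytoplasm, were at 0.664 and 5.56 FPKM in FGL against 72.1 and 126 in uFIB at day 21, changes of -5.46 and -4.27. *Ngp*, a neutrophil granule protein, was at 2.92 and 32.5 FPKM, a change of -3.09. At day 12 the order was the other way: *S100a8* was at 1229 FPKM in FGL and 2.97 in uFIB, and *S100a9* at 746 and 0.585. SL held 4309 FPKM of *S100a8* at day 21 and 13249 at day 12.

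*Ly6c2*, a surface protein of monocytes and neutrophils, was at 0.313 FPKM in FGL and 11.4 in uFIB at day 21, a change of -3.24. *BC100530*, a stefin of neutrophils, was listed at 0 in FGL and was at 11.3 FPKM in uFIB. *Lyz2*, the lysozyme of myeloid cells, was at 7.22 and 27.8 FPKM (-1.81), and *Ccl6*, a myeloid chemokine, at 3.40 and 12.4 (-1.61). All 7 genes belong to the 339 that were at least 8-fold higher in SL and SFGL than in uFIB at day 12, and all 7 were at least 2-fold higher in FGL than in uFIB at day 12. The uFIB library was the same in these comparisons of day 12. *Ly6c2* and *BC100530* have near-identical copies, so their values are uncertain.

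The neutrophil signal of day 21 was in the untreated library. Of the 11 neutrophil granule genes 4 were kept and 3 were called lower in FGL. These 3 reached 10 FPKM at day 21 through uFIB alone, so a median over the kept genes is set by the limit (-3.68 at day 21 and 8.15 at day 12). Over all 11 genes, with no limit, the median change was -1.25 at day 21 and 5.78 at day 12. *Lcn2*, the fourth, which fibroblasts also express, was at 119 FPKM in FGL and 113 in uFIB. The 11 genes summed to 134 FPKM in FGL beside 364 in uFIB at day 21, whereas at day 12 the sum was 3353 FPKM in FGL beside 56.8 in uFIB. *Ptprc*, which all leukocytes carry, was near 0 in both libraries of day 21, as given above, and at 1.79 FPKM in SL of day 21. Most other pan-leukocyte genes were lower in FGL. *Itgb2* was at 0.525 FPKM in FGL and 2.70 in uFIB, and *Cd52* at 0.315 and 2.33. *Arhgdib* went the other way, at 57.4 and 52.3 FPKM, and *Cd48* was listed at 0 in both. Over the 339 genes, 249 were lower and 75 higher in FGL than in uFIB at day 21 and 15 were equal. These counts take in values near 0: of the 338 genes above 0 in SL, 91 were listed at 0 in FGL and 19 in uFIB. A library with fewer reads lists more low genes at 0, and the depth is not known from the table. The part of library depth in these counts was not tested. The summed level was 734 FPKM in FGL and 1002 in uFIB. *S100a8* and *S100a9* gave 5.56 and 0.664 FPKM of the sum in FGL and 126 and 72.1 in uFIB. *Lmo2* and *Gata2*, factors of the mix that are also in this set, gave 66.5 and 35.1 FPKM in FGL and 2.28 and 2.13 in uFIB. The part of blood cell RNA in the decreases was not tested. Without the 339 genes, which include *Lmo2* and *Gata2*, 24 genes were higher in FGL and 6 lower.

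The 6 other lower genes were lower in FGL on both days. *Ptgds*, a prostaglandin D synthase, was at 13.8 FPKM in FGL and 58.8 in uFIB at day 21 (-2.01) and at 7.44 and 48.9 at day 12 (-2.56). *C1qtnf3*, a secreted relative of adiponectin, was at 5.97 and 16.3 FPKM (-1.31) and at 8.63 and 22.2 (-1.27). *Sfrp2*, a secreted Wnt inhibitor and the most expressed of the 6, was at 207 and 433 FPKM (-1.06) and at 304 and 509 (-0.74).

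*Ace*, the angiotensin-converting enzyme, was at 4.10 and 11.2 FPKM at day 21 (-1.25) and at 2.97 and 6.49 at day 12 (-0.92). *Cox8b*, a muscle and brown fat form of a cytochrome c oxidase subunit, was at 9.57 and 22.8 FPKM (-1.17) and at 8.18 and 12.3 (-0.53). *Rpl22l1*, a paralog of a ribosomal protein, was at 9.67 and 21.1 FPKM (-1.05) and at 16.2 and 26.6 (-0.68). *C1qtnf3*, *Ptgds*, *Sfrp2*, *Ace* and *Cox8b* were lower still in SL and SFGL at day 21, for example *Sfrp2* at 10.8 and 6.55 FPKM. *Rpl22l1* was not, at 23.1 and 43.2 FPKM.

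The pair of day 12 shares no library with the pair of day 21, so direction can be compared. Of 6476 genes kept at day 12, 104 were higher in FGL (1.61%) and 27 lower (0.417%), and 95 of the 104 were among the 339 genes high in SL and SFGL. Both sets were measured against the same uFIB library of day 12, so a low value there favours both. This overlap is a description only, and the share of the 339 among the 6476 is not given. Of the 39 genes called at day 21, 22 had the same direction at day 12 (56.4%), namely 16 of the 26 higher and 6 of the 13 lower ones. Over all kept genes, the direction was the same for 60.2%. Past the limit on both days were *Lmo2*, *Gata2*, *Reg3g* and *Ankrd1*, all higher, and *Ptgds* and *C1qtnf3*, both lower. *Ankrd1* was close to the limit at day 21, with a change of 0.94 when both libraries were scaled to the same upper quartile. It was at 18.8 FPKM in FGL of day 21 and at 10.96 in uFIB of day 12. Across 6369 kept genes, without *Lmo2*, *Gata2* and the genes high in SL and SFGL, the changes of the 2 days had a Pearson's r of 0.41, a description over genes that are not independent of each other.

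**Figure D4:**
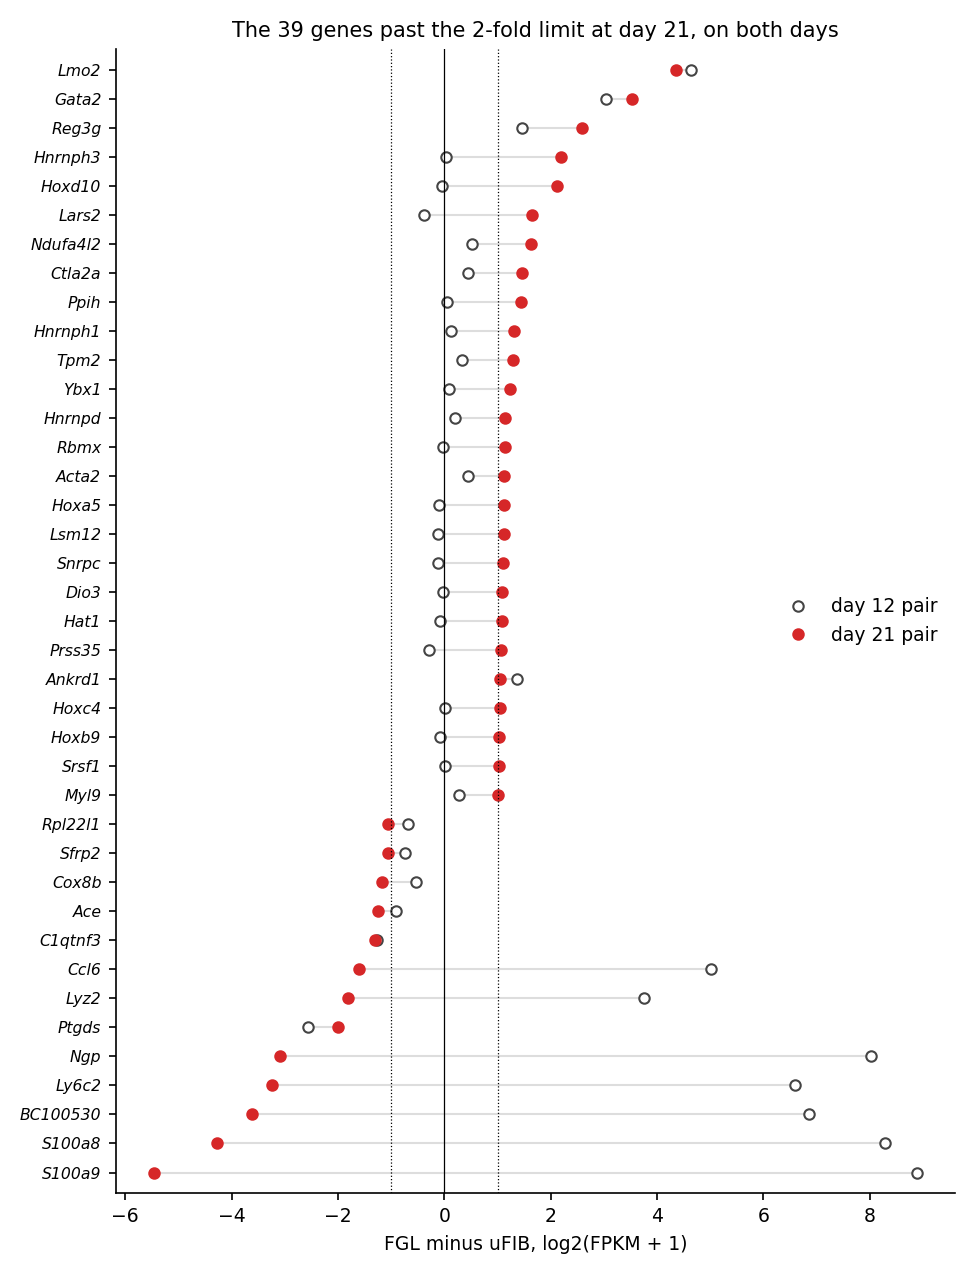
Change of FGL against uFIB, on log2(FPKM + 1), for the 39 genes called at day 21, ordered by that change (filled, day 21 pair; open, day 12 pair; dotted lines, 2-fold). The 7 neutrophil and myeloid genes lie on opposite sides of 0 on the 2 days, and most RNA-binding and *Hox* genes lie near 0 at day 12.

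A lower limit of 1.5-fold on both days, chosen after the values were seen, added further genes. Of 6052 genes kept on both days 11 were higher and 13 lower on both, while 1 was higher at day 21 and lower at day 12 and 8 the reverse. All 8 were among the genes high in SL and SFGL, a set chosen against the same uFIB library of day 12. The higher genes beyond the 4 named were *Grem1*, *Olr1*, *Tinagl1*, *Inhba*, *Ms4a4d*, *Cited2* and *B4galnt1*. *Grem1*, a secreted BMP antagonist, was at 57.9 FPKM in FGL and 29.6 in uFIB at day 21 and at 30.5 and 18.6 at day 12. *Inhba*, a subunit of activins, was at 14.5 and 8.40 FPKM and at 10.2 and 6.44. The lower genes included *Mmp3* and *Mmp13*, metalloproteinases that cut matrix. *Mmp3* was at 78.7 and 144 FPKM at day 21 and at 55.4 and 102 at day 12, and *Mmp13* at 24.9 and 39.7 and at 11.8 and 25.3. *Chrdl1*, *Ndnf*, *Col8a2*, *Psmg4*, *Clec11a*, *Nnmt* and *Echs1* were lower on both days as well, with changes between -0.62 and -0.78 at day 21.

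The promoters of the 4 genes past the limit on both days that are not factors of the mix are shown because these are the changes that both pairs of libraries share. Each sequence runs from 250 bases before to 50 bases after the start site on the strand of the gene, from RefSeq on GRCm38.p6, and each gene had 1 promoter. Capitals mark 2 kinds of match on either strand, GATAA, which reads TTATC on the other strand, as a GATA motif and CATTCC, which reads GGAATG there, as a TEAD motif. An ETS motif, CCGGAA or on the other strand TTCCGG, was also searched, and its last bases can be the first of GGAATG.
Ankrd1 (chr19:36119795-36120094, minus strand): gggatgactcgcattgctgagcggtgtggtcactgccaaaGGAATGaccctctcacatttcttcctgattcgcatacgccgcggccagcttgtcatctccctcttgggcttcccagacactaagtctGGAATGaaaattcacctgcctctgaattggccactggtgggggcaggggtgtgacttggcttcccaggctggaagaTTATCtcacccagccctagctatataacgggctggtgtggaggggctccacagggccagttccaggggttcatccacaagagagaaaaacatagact
Reg3g (chr6:78468825-78469124, minus strand): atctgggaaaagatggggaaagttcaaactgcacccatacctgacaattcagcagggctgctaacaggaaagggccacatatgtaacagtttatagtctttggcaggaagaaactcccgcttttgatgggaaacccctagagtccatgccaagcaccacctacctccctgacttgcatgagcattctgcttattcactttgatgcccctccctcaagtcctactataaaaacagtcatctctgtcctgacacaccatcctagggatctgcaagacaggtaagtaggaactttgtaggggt
Ptgds (chr2:25469700-25469999, minus strand): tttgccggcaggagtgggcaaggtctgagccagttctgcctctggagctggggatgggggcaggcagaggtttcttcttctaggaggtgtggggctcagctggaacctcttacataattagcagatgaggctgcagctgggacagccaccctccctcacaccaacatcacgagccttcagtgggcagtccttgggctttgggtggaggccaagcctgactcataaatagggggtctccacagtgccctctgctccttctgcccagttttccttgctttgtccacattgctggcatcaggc
C1qtnf3 (chr15:10952082-10952381, plus strand): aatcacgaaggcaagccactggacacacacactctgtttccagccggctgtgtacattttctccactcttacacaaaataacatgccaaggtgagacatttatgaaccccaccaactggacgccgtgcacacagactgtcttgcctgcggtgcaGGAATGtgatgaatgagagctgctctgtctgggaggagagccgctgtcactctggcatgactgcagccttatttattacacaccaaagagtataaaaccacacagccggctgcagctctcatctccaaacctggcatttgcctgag

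The *Ankrd1* promoter held GGAATG with its first base at -210 and at -123 from the start site and TTATC at -47. The *C1qtnf3* promoter held GGAATG at -96, and none of the 3 motifs was found in the windows of *Reg3g* and *Ptgds*. Promoters were found for 22 of the 26 higher genes (28 promoters) and 12 of the 13 lower genes (14 promoters). The GATA motif was in 6 of the 28 promoters of higher genes (21.4%) and in 1 of the 14 of lower genes (7.14%), beside 15.0% of the promoters of kept genes and 25.4% of all promoters. The TEAD motif was in 17.9% and 7.14%, beside 11.8% and 14.7%. The ETS motif was in 21.4% of the promoters of higher genes and in none of the 14 of lower genes, beside 28.4% and 14.9%. A match describes the letters in the window and does not show a site in use.

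Genes of fibroblast identity and of the matrix were close to uFIB as groups at day 21. Of 23 fibroblast identity genes 18 were kept and none was called, with a median change of 0.11. *Fbln2*, a matrix glycoprotein and one of the most expressed, was at 412 FPKM in FGL and 409 in uFIB. Of 24 collagen chains 20 were kept, none was called and the median was -0.03. Of 26 other matrix genes, all kept, none was called and the median was 0.02, with *Sparc* at 2088 and 2261 FPKM and *Bgn* at 1975 and 1854. In SL and SFGL the medians of these 3 lists lay between -1.53 and -2.40 against the same uFIB library. SL had 823 higher (11.5%) and 924 lower genes (12.9%) of 7148 at day 21, and SFGL 1042 higher (14.4%) and 1188 lower (16.4%) of 7225.

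Lists of respiratory chain and lipid genes had medians slightly below 0 on both days, with no member past the limit. *Cox8b*, given above, is in none of these lists. All 24 subunits of the respiratory chain were kept, and 23 of them were below uFIB on both days, with medians of -0.31 at day 21 and -0.27 at day 12. *Atp5b*, a subunit of ATP synthase, was at 365 FPKM in FGL and 442 in uFIB at day 21 and at 320 and 367 at day 12. Of 13 kept adipocyte genes 11 were below uFIB at day 21 and 10 on both days, with medians of -0.29 and -0.36. *Fabp4*, the fatty acid binding protein of fat cells, was at 2814 and 3283 FPKM and at 1480 and 1976, and *Retn*, the hormone resistin, was at 30.7 and 55.8 and at 54.7 and 69.4. Genes of sterol and fatty acid synthesis had medians of -0.29 and -0.14, although *Scd1*, the most expressed, was at 1173 FPKM in FGL and 972 in uFIB at day 21. Glycolysis genes lay on the other side of 0, with 10 of 12 kept members above uFIB on both days and medians of 0.12 and 0.16. Cytosolic ribosomal proteins had medians of -0.13 and -0.17, and lysosomal genes of -0.15 and -0.20. With transcripts divided by length into 4 classes of equal size, the median at day 21 was -0.02 in the shortest class and between 0.03 and 0.05 in the other 3, and 10 of the 13 lower and 13 of the 26 higher genes were in the shortest. At day 12 the median was -0.13 in the shortest class, -0.08 and -0.05 in the next ones and 0.003 in the longest. The part of transcript length in the list medians of either day was not tested.

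**Figure D5:**
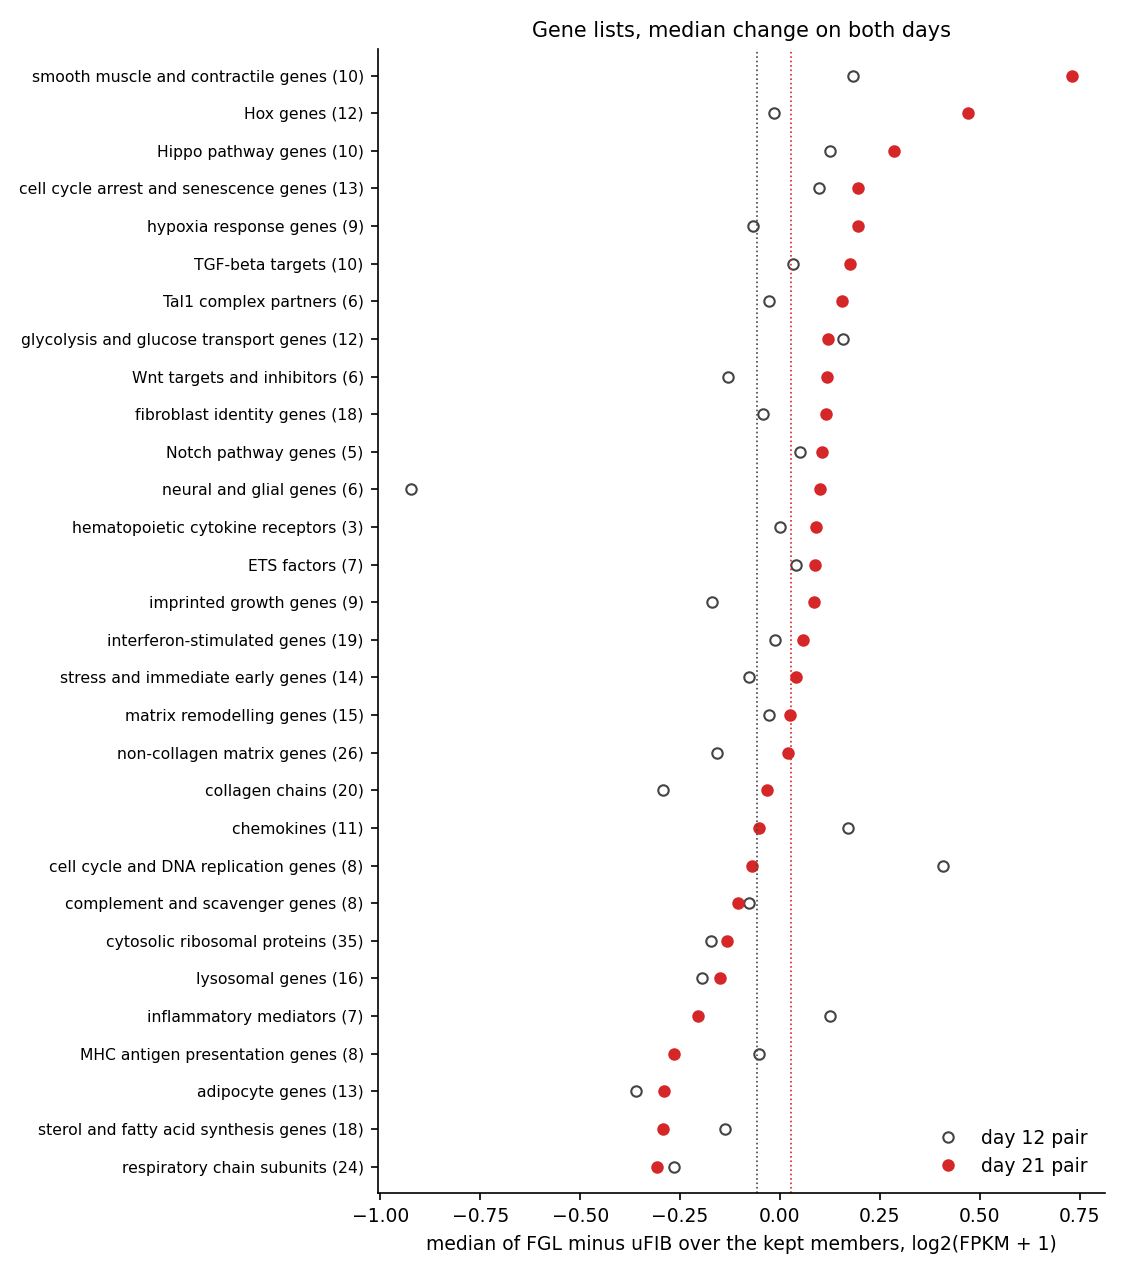
Median change of FGL against uFIB over the kept members of each gene list with at least 3 of them (number in parentheses), on log2(FPKM + 1), at day 21 (filled) and day 12 (open). The dotted lines are the medians over all kept genes on each day, the neutrophil list (-3.68 and 8.15 over its 4 kept genes) is not drawn, and the smooth muscle list (0.73) and *Hox* genes (0.47) are highest at day 21.

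Further groups differed little. Of 8 kept cell cycle genes none was called, and the median was -0.07 at day 21 and 0.41 at day 12. The median was 0.20 for genes of cell cycle arrest, with *Igfbp5* at 549 FPKM in FGL and 460 in uFIB, 0.18 for TGF-beta targets, 0.19 for genes of the hypoxia response and 0.06 for interferon-stimulated genes, with none called in these 4 lists. The Wnt list had 1 called gene, *Sfrp2*, while its relative *Sfrp1* was at 854 and 695 FPKM. *Comp*, a matrix protein of cartilage, was at 13.3 and 26.0 FPKM at day 21 and at 1.30 and 3.64 at day 12, changes of -0.92 and -1.01. *Mt2*, a metallothionein, was at 82.0 FPKM in FGL and 151 in uFIB at day 21, a change of -0.88, and at 186 and 183 at day 12. *Matn4*, a matrilin, was just short of the limit among lower genes at 8.44 and 17.4 FPKM, and *Pin4*, a prolyl isomerase named here after its values were seen, among higher genes at 64.7 and 32.2.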

How the data were processed

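RNA-seq libraries of MEFs, 1 for each of 4 conditions at day 12 and at day 21, were read from 1 table of FPKM values as the authors deposited them. The submitters' processing notes name TopHat, Cufflinks and mm10; versions are not given in the sources used here. The table has 1 FPKM value per gene and library, with no counts, no replicates and no columns of the authors' own comparisons. Depth is not held by FPKM. An estimate from the step that 1 read makes in values under 0.3 FPKM rested on 4.07% to 8.64% of the low genes of a library and differed in size from the aligned reads that the study lists, so no depth is given. How many low values fell on other whole numbers of reads was not counted. Because the table holds no counts, no count test was run, and with 1 library on a side no test of any kind was possible.

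Samples were grouped by their titles. Changes were taken on log2(FPKM + 1), with a pseudocount of 1 that understates the change of low genes, and genes were kept where the higher library reached 10 FPKM. Genes were called by size alone, at 2-fold. The text names the 4 factors, the 20 genes that rank first in each direction, up to 6 called members in each direction and the 2 most expressed members of each list, the 5 genes that changed most against their direction at day 12, and fixed cell type markers. The comparison, the 47 gene lists and the markers were chosen with earlier results of these data known. The families of RNA-processing genes, the 1.5-fold limit on both days and the set of genes high in SL and SFGL were chosen after the values were seen. Of 772 list genes 755 had an entry. Genes of progenitors came from the authors' pooled FPKM of the differentiation stages, a table normalized separately, in which 1 stage column was not used.

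Motifs were searched on both strands of RefSeq promoters on GRCm38.p6. Transcript lengths were found for 95.3% of the kept genes. The calling rule was run on a copy of the uFIB library of day 21 with known changes and no noise added. Its outcome was fixed by that design, so the run checked the code only and not calls between 2 real libraries. The alternatives were other pseudocounts (0.1 and 0.001), other limits, scaling to the same upper quartile, centring on the median, other untreated references and the pair of day 12. The tools were pandas 2.3.3 and NumPy 2.4.6 under Python 3.11.15, with SciPy 1.17.1 for intervals and matplotlib 3.10.9 for plots.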

Additional observations from a re-analysis of the deposited data

Results flagged for a closer look

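For 7 genes the difference between FGL and uFIB had opposite directions at day 21 and day 12, at least 2-fold each way; with 1 library on a side, the difference between the days was not tested. The changes at day 21 and day 12, on log2(FPKM + 1), were -5.46 and 8.88 for *S100a9*, -4.27 and 8.28 for *S100a8*, -3.62 and 6.85 for *BC100530*, -3.24 and 6.59 for *Ly6c2*, -3.09 and 8.02 for *Ngp*, -1.81 and 3.75 for *Lyz2* and -1.61 and 5.02 for *Ccl6*. All 7 are genes of neutrophils or other myeloid cells that were at least 8-fold higher in SL and SFGL than in uFIB at day 12, the same uFIB library as for FGL of that day. In the untreated cells themselves, *S100a8* was at 126 FPKM at day 21 and 2.97 FPKM at day 12, and *S100a9* at 72.1 and 0.585 FPKM.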

How the results depend on the processing

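No paired analysis was possible because each condition had 1 library per day, and leaving out a replicate was not possible for the same reason. The 26 higher and 13 lower genes became 56 and 44 with a limit of 1 FPKM and likewise without a limit, 14 and 5 with a limit of 30 FPKM, and 5 and 6 at 4-fold. With the mean of both untreated libraries as reference 46 genes were higher, and the number of lists with a median change of at least 0.5 in size went from 2 to 1. With uFIB of day 12 as reference the counts were 125 and 79, and in the pair of day 12 they were 104 and 27. Past the limit against each untreated library were 12 and 4 genes, and without the genes high in SL and SFGL 6 genes were lower, 2 settings added after the data were seen. Other pseudocounts, the same upper quartile and centring on the median left both counts within 1.5 times, with 18 to 34 higher and 13 to 15 lower. The share with the same direction at day 12 ranged from 45.5% to 66.7% over the alternatives. In the pair of day 12 the direction turned, among values of at least 1 in size at day 21, for the median of the kept neutrophil genes (8.15) and for *Hoxd10* (-0.046), *Lars2* (-0.38), *Rbmx* (-0.031), *Hoxa5* (-0.11), *Lsm12* (-0.13), *Snrpc* (-0.13), *Dio3* (-0.023), *Hat1* (-0.087), *Ccl6* (5.02), *Lyz2* (3.75), *Ngp* (8.02), *Ly6c2* (6.59), *BC100530* (6.85), *S100a8* (8.28) and *S100a9* (8.88); the cause was not tested. Among smaller values the sign also turned for *Mt2* (0.022) and for 14 of 31 list medians, among them *Hox* genes (-0.015), the neural and glial list (-0.92) and cell cycle genes (0.41). Of 200 values of named genes under 5 alternatives 166 moved by no more than the gene differed between the untreated libraries of the 2 days, 19 moved by more and 15 are those that turned. That tolerance is wide for some genes: *Lars2* went from 1.65 to 0.87 with the mean of both untreated libraries as reference and is among the 166. Low genes are the least certain, since the depth is not known from the table.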

Other observations

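Genes of Schwann cells and neural crest, named here after their values were seen, were about as high in FGL as in uFIB at day 21 and lower in FGL at day 12. *Sox10*, a transcription factor of neural crest and glia, was at 38.5 FPKM in FGL and 36.3 in uFIB at day 21 and at 11.1 and 22.1 at day 12. *Ngfr*, a neurotrophin receptor, was at 100.4 and 112 FPKM and at 37.4 and 84.1, and *Foxd3*, a further neural crest factor, at 14.7 and 13.5 and at 3.74 and 7.23. The 6 kept genes of the neural and glial list had a median change of 0.10 at day 21 and -0.92 at day 12.

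*Srgn*, a proteoglycan of mast cell and other blood cell granules, was at 72.9 FPKM in FGL and 73.4 in uFIB at day 21, beside 137 and 10.6 FPKM at day 12. In SL and SFGL at day 21 it was at 856 and 1515 FPKM. *Igfbp5*, a binding protein of insulin-like growth factors, was at 549 and 460 FPKM in FGL and uFIB at day 21 and at 58.8 and 133 at day 12.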
